A study of Mus musculus with 8 samples.

Results

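The genes described are the VEGF ligand gene Vegfa, the VEGF receptor genes Kdr, Flt1 and Flt4, the co-receptor genes Nrp1 and Eng, and the endothelial junction genes Cdh5, Pecam1 and Esam. These 9 genes, of 18194 genes named by at least 1 probe set of their own, were measured by the 19 probe sets, of 45101 in the table, that the platform annotation gives to exactly 1 of these 9 genes, and 0 probe sets named a member beside another gene. Flt1 and Nrp1 have 4 probe sets each, Flt4, Vegfa, Cdh5 and Eng have 2 each, and Kdr, Pecam1 and Esam have 1 each. Probe sets of 1 gene share their target and are not replicates.

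Total RNA was hybridised to Affymetrix mouse expression arrays, with 2 arrays in each of 4 groups. Bone marrow flushed from the femur and tibia of 3-month-old males came from Col18a1-/- mice (knockout) and from Col18a1+/+ mice (wild type), and fetal liver at embryonic day 14.5 came from Col18a1-/- and Col18a1+/+ embryos of undetermined sex. All mice are given the C57B6/J strain, both tissues were filtered to cell suspensions before extraction, and each array held a pool of 2 littermates. Col18a1 encodes collagen XVIII, a basement membrane proteoglycan whose end fragment, endostatin, is known as an inhibitor of endothelial growth. Every level below is the log2 of the deposited intensity, so a difference of 1 is a 2-fold difference, and levels of different probe sets are not set against each other.

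VEGF-A is secreted and binds receptor tyrosine kinases on endothelial cells. Kdr (VEGFR2) carries most of its growth and permeability signal, Flt1 (VEGFR1) binds it tightly and also exists as a soluble decoy, and Flt4 (VEGFR3) binds VEGF-C and VEGF-D and marks lymphatic and sinusoidal vessels. Neuropilin 1 presents VEGF-A to Kdr and binds class 3 semaphorins. VE-cadherin (Cdh5), PECAM-1 and ESAM hold neighbouring endothelial cells together, and endoglin (Eng) is a co-receptor for BMP9 and TGF-beta. Several are not restricted to vessels: platelets and megakaryocytes carry PECAM-1 and ESAM, and stem cells carry ESAM and endoglin.

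Tissue labels matched their markers. The summed intensity of 7 hepatoblast genes was 205 to 258.5 on the bone marrow arrays, against 67080 to 70770 on the fetal liver arrays, and that of 7 B lineage genes was 9874 to 10880 in bone marrow, against 264 to 326.2 in fetal liver. Col18a1, the targeted gene, stood at 5.63 and 5.99 in knockout bone marrow, against 7.84 and 7.85 in wild-type bone marrow, on its brighter probe set. In fetal liver it stood at 8.17 and 8.06 in knockouts, against 9.06 and 9.18 in wild type. Xist stood at 4.97 and 4.77 in knockout fetal liver, against 11.04 and 11.22 in wild-type fetal liver, so genotype and the sex of the fetal pools cannot be told apart. Replicate arrays correlated at r = 0.993 to 0.997 across probe sets, which are not independent, and no 2 arrays of a group were identical. Nothing in the labels says that pools of a group came from separate litters, so p-values measure the spread between these pools only.

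The first question was how the levels of these genes stood in adult bone marrow relative to fetal liver. Of the 19 probe sets, 17 reached 5 (log2) on at least 2 arrays and were tested with limma over 27654 probe sets, two-sided, at an adjusted p under 0.05. In knockouts, 14 of the 17 were called lower in bone marrow, 0 higher, and in wild type 12 were lower and 2 higher. Across all probe sets tested, 29.2% were called lower in knockouts and 30.9% in wild type, and 31.3% and 32.3% were called higher. The median difference, bone marrow minus fetal liver, was -0.80 over the members in knockouts and -0.75 in wild type, beside -0.02 and -0.03 over all probe sets. In knockouts 16 of the 17 had tissues that did not overlap, beside 80.9% of all, and in wild type 17, beside 83.8%. The knockout and wild-type tissue comparisons share no array, and 17 of the 17 members had the same sign in both, as had 87.3% of all probe sets tested. Tissue and age cannot be told apart here, nor can the smaller number of cells of a type from less RNA per cell, and in wild type the fetal pools also differed from the marrow in Xist.

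**Figure D1:**
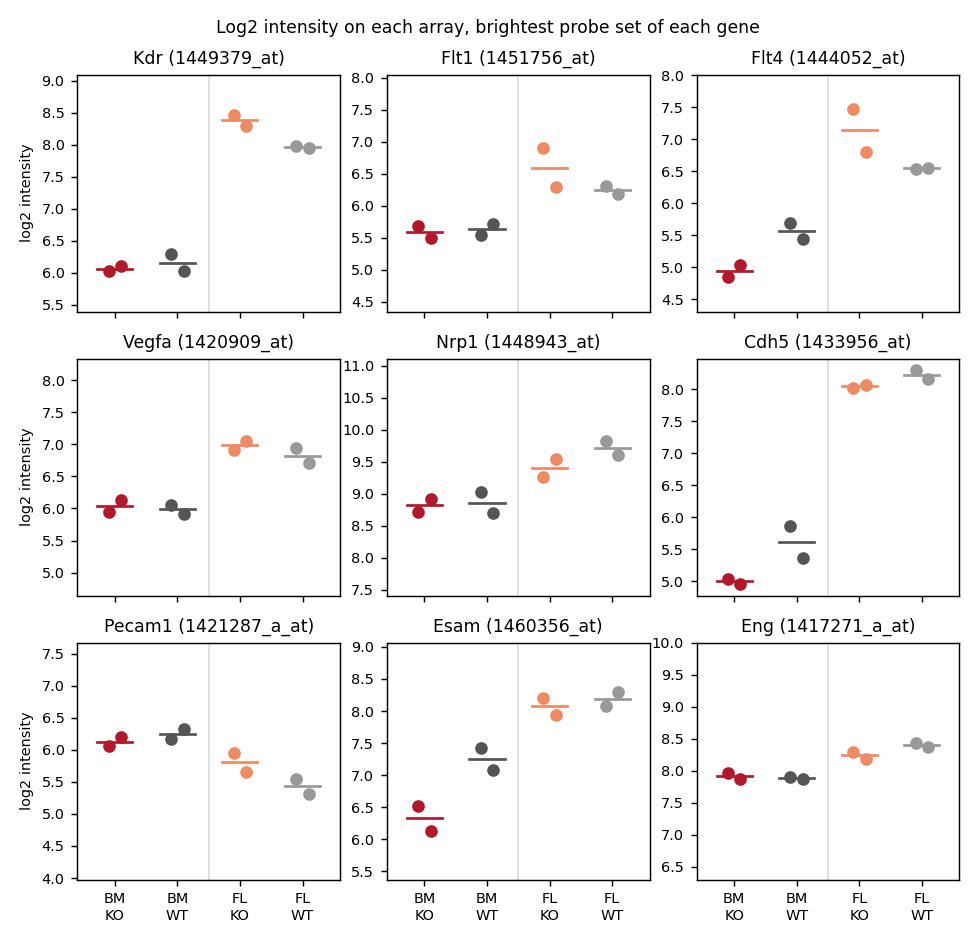
Log2 intensity (vertical axis) on each of the 8 arrays for the brightest probe set of each gene, with points for arrays and a line for the mean of each group of 2 (BM bone marrow, FL fetal liver, KO knockout, WT wild type). Each panel has its own vertical range, and 8 of the 9 genes lie lower in bone marrow in both genotypes, with Pecam1 the exception.

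Vegfa, the ligand gene, was lower in bone marrow. Its brighter probe set, 1420909_at, stood at 5.95 and 6.12 in knockout bone marrow, 6.06 and 5.92 in wild-type bone marrow, 6.92 and 7.06 in knockout fetal liver, and 6.94 and 6.70 in wild-type fetal liver. No marrow array reached the lowest liver array, while the genotypes overlapped within each tissue. The bone marrow minus fetal liver difference was -0.95 ± 0.12 in knockouts (SE; adjusted p = 0.000249, limma) and -0.83 ± 0.12 in wild type (adjusted p = 0.000491, limma). The other probe set of Vegfa, 1451959_a_at, gave -0.71 ± 0.12 and -0.75 ± 0.12.

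Kdr, the main signalling receptor, was several-fold lower in bone marrow. Its probe set stood at 6.02 and 6.10 in knockout bone marrow, 6.29 and 6.02 in wild-type bone marrow, 8.47 and 8.29 in knockout fetal liver, and 7.98 and 7.95 in wild-type fetal liver. The groups thus ran from knockout fetal liver through wild-type fetal liver to the marrow groups, and the marrow groups overlapped. Kdr differed between bone marrow and fetal liver by -2.32 ± 0.12 in knockouts (adjusted p = 1.17e-06, limma), which puts fetal liver 4.99-fold above bone marrow, and by -1.81 ± 0.12 in wild type (adjusted p = 4.47e-06, limma), or 3.52-fold.

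The 3 receptor genes and Eng lie on mouse chromosomes 5, 5, 11 and 2, and their promoters are shown as those of the VEGF receptor kinases and of endoglin, which the tissue comparison called lower in bone marrow. Each window runs from 250 bases before to 50 bases after the start in RefSeq's annotation of build GRCm38.p6 and is written 5′ to 3′ on the gene's strand. Capitals mark the motif GGGCGG, a GC box of the kind bound by Sp1, and the motif AGGAAG, which holds the GGAA core of ETS factors, each on either strand, the reverse complements being CCGCCC and CTTCCT.
Kdr, chr5:75978406-75978705, minus strand: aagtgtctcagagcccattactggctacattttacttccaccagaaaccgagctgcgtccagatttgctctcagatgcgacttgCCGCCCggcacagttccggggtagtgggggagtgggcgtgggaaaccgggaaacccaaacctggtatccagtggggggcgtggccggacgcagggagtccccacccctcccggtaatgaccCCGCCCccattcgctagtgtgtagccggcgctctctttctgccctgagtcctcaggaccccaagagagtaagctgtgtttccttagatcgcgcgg
Flt1, chr5:147725962-147726261, minus strand: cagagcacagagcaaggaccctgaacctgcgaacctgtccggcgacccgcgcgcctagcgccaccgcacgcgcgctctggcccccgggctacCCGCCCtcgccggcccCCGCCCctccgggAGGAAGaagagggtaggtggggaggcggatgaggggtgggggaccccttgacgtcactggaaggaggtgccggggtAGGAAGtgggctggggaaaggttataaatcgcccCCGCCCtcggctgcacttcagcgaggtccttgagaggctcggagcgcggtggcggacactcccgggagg
Flt4, chr11:49609429-49609728, plus strand: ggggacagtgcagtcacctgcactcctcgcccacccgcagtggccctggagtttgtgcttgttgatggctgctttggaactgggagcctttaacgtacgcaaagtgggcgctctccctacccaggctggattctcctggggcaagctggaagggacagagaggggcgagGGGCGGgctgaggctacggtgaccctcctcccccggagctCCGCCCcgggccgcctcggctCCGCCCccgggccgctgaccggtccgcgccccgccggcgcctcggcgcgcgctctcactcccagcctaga
Eng, chr2:32646345-32646644, plus strand: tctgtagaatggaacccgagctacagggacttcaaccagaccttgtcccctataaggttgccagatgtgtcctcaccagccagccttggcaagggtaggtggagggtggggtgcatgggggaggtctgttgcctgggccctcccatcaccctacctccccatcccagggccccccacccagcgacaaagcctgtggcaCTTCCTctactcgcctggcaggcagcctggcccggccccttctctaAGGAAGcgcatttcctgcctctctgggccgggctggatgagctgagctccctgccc
GGGCGG occurred 2 times in the window of Kdr, 3 times in that of Flt1, 3 times in that of Flt4 and 0 times in that of Eng, and 35.7% of the 32851 promoter windows in the table held it at least once. AGGAAG occurred 2 times each in the windows of Flt1 and Eng and 0 times in those of Kdr and Flt4, with 35.4% of all windows holding it. The windows of Kdr, Flt1, Flt4 and Eng were 60.7%, 70.7%, 70.3% and 63.3% G and C, beside a median of 52.7%. A TATAAA sequence lay 31 bases before the start of Flt1 and in none of the other 3 windows, and 13.6% of all windows held one. Of the windows not printed, that of Nrp1 held 1 GGGCGG and 1 AGGAAG, and the 2 of Vegfa held 2 and 1 GGGCGG and 0 AGGAAG. Vegfa was also called lower in bone marrow, as was the brightest probe set of Nrp1. Another Nrp1 probe set, 1457198_at, was called higher in wild-type bone marrow. For Flt4 the dimmer probe set, 1421442_at, was not called between tissues in wild type. The table held windows for 6 of the 9 genes, and a match is a string of letters and not a shown site.

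Flt1, the high-affinity and decoy receptor, was lower in bone marrow on all 3 of its tested probe sets. The probe set 1419300_at of Flt1 stood at 4.61 and 4.87 in knockout bone marrow, 5.20 and 5.19 in wild-type bone marrow, 7.08 and 6.82 in knockout fetal liver, and 6.33 and 6.46 in wild-type fetal liver. None of its 4 groups overlapped another, with the knockouts outermost on both sides. Its difference, bone marrow minus fetal liver, was -2.21 ± 0.13 in knockouts (adjusted p = 2.32e-06, limma) and -1.20 ± 0.13 in wild type (adjusted p = 7.11e-05, limma). Both knockout marrow arrays lay under the filter level of 5, so the size of the knockout difference is uncertain. The brightest Flt1 probe set, 1451756_at, gave smaller differences, -1.001 ± 0.19 in knockouts and -0.61 ± 0.19 in wild type, and the wild-type call was lost without wild-type bone marrow replicate 1 (adjusted p = 0.105, limma) or wild-type fetal liver replicate 1 (adjusted p = 0.087, limma). The third, 1440926_at, gave -0.999 ± 0.14 and -0.59 ± 0.14. The remaining Flt1 probe set, 1454037_a_at, lay between 3.46 and 3.91 on all 8 arrays and was not tested.

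Flt4, the VEGF-C and VEGF-D receptor, had probe sets of unequal range. The brighter one, 1444052_at, stood at 4.85 and 5.04 in knockout bone marrow, 5.69 and 5.45 in wild-type bone marrow, 7.47 and 6.80 in knockout fetal liver, and 6.54 and 6.56 in wild-type fetal liver. All 4 groups were apart, but the knockout liver pools lay further from each other than those of any other group. It differed between tissues by -2.19 ± 0.20 in knockouts (adjusted p = 3.25e-05, limma) and by -0.98 ± 0.20 in wild type (adjusted p = 0.00293, limma). The knockout marrow arrays again lay at or near the filter level. The dimmer probe set, 1421442_at, spanned only 4.88 to 5.73 and gave -0.44 ± 0.15 in knockouts (adjusted p = 0.0307, limma), a call lost without any 1 of replicates 1 and 2 of knockout bone marrow or replicate 2 of knockout fetal liver (adjusted p = 0.0603 to 0.157, limma), and with only the knockout arrays in the fit (adjusted p = 0.0603, limma). In wild type it gave -0.21 ± 0.15 and was not called.

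Nrp1, the neuropilin gene, gave opposite answers on different probe sets. The brightest, 1448943_at, stood at 8.72 and 8.91 in knockout bone marrow, 9.02 and 8.69 in wild-type bone marrow, 9.25 and 9.54 in knockout fetal liver, and 9.82 and 9.61 in wild-type fetal liver. Here the marrow lay below the liver, by -0.58 ± 0.16 in knockouts (adjusted p = 0.0121, limma) and -0.86 ± 0.16 in wild type (adjusted p = 0.00156, limma), the knockout call being lost without replicate 1 of knockout bone marrow (adjusted p = 0.0831, limma) or replicate 2 of knockout fetal liver (adjusted p = 0.0704, limma). Probe set 1457198_at of Nrp1 stood at 6.22 and 6.38 in knockout marrow, 6.49 and 6.54 in wild-type marrow, 5.91 and 6.53 in knockout fetal liver, and 5.73 and 5.74 in wild-type fetal liver. On this probe set the marrow was higher in wild type, by 0.78 ± 0.18 (adjusted p = 0.00568, limma), while in knockouts the groups overlapped at 0.07 ± 0.18. That knockout difference rested on single pools, being 0.39 without knockout fetal liver replicate 2 and -0.24 without knockout fetal liver replicate 1. The middle pair, 1418084_at and 1448944_at, differed by -0.35 to -0.18, with 1 call, that of 1448944_at in knockouts, which was lost without any 1 of the 4 knockout arrays (adjusted p = 0.0632 to 0.115, limma) and with array weights (adjusted p = 0.0595, limma). Among settings with no single array left out, probe set 1418084_at of Nrp1 passed in knockouts with quantile normalization or a trended prior. In wild type it passed with quantile normalization or median centring (adjusted p = 0.0326 to 0.0482 over these, limma). Without knockout fetal liver replicate 2, its knockout difference was -0.39.

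Cdh5, the adherens junction cadherin used as a defining endothelial marker, had the largest fitted tissue difference of the 17 tested probe sets in both genotypes. Its probe set 1433956_at stood at 5.04 and 4.96 in knockout bone marrow, 5.87 and 5.36 in wild-type bone marrow, 8.03 and 8.07 in knockout fetal liver, and 8.29 and 8.16 in wild-type fetal liver. The difference was -3.04 ± 0.16 in knockouts (adjusted p = 1.23e-06, limma), with fetal liver 8.24-fold above bone marrow, and -2.61 ± 0.16 in wild type (adjusted p = 2.86e-06, limma), or 6.09-fold. The knockout marrow arrays lay at the filter level of 5, so the size of the knockout difference is uncertain there, while both wild-type marrow arrays lay above it. The other Cdh5 probe set, 1422047_at, lay between 3.23 and 3.83 on all arrays with its groups overlapping, and was not tested.

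Esam, an immunoglobulin-type adhesion molecule of tight junctions, stood at 6.52 and 6.13 in knockout bone marrow, 7.42 and 7.08 in wild-type bone marrow, 8.20 and 7.94 in knockout fetal liver, and 8.08 and 8.30 in wild-type fetal liver. The marrow groups were apart from each other and from the liver, where the genotypes overlapped. Esam differed between tissues by -1.75 ± 0.18 in knockouts (adjusted p = 5.86e-05, limma) and by -0.95 ± 0.18 in wild type (adjusted p = 0.00175, limma).

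Pecam1 ran the other way. It stood at 6.06 and 6.20 in knockout bone marrow, 6.17 and 6.33 in wild-type bone marrow, 5.95 and 5.66 in knockout fetal liver, and 5.55 and 5.31 in wild-type fetal liver. Every marrow array lay above every liver array, and the liver genotypes did not overlap. Pecam1 was higher in bone marrow by 0.82 ± 0.14 in wild type (adjusted p = 0.000988, limma), and the 0.32 ± 0.14 in knockouts was not called (adjusted p = 0.0763, limma) except without replicate 1 of knockout fetal liver (0.47, adjusted p = 0.0301, limma).

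Eng, the BMP9 co-receptor, stood on its brighter probe set 1417271_a_at at 7.96 and 7.87 in knockout bone marrow, 7.91 and 7.88 in wild-type bone marrow, 8.30 and 8.18 in knockout fetal liver, and 8.43 and 8.37 in wild-type fetal liver. It spanned the smallest tissue gap of the brightest probe sets apart from Pecam1 in knockouts, -0.33 ± 0.10 in knockouts (adjusted p = 0.0183, limma) and -0.51 ± 0.10 in wild type (adjusted p = 0.00179, limma). The knockout call was lost without replicate 2 of knockout bone marrow (adjusted p = 0.102, limma) or replicate 1 of knockout fetal liver (adjusted p = 0.0692, limma), and with only the knockout arrays in the fit (adjusted p = 0.0532, limma). The second Eng probe set, 1432176_a_at, gave -0.80 ± 0.12 in knockouts and -1.01 ± 0.12 in wild type.

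**Figure D2:**
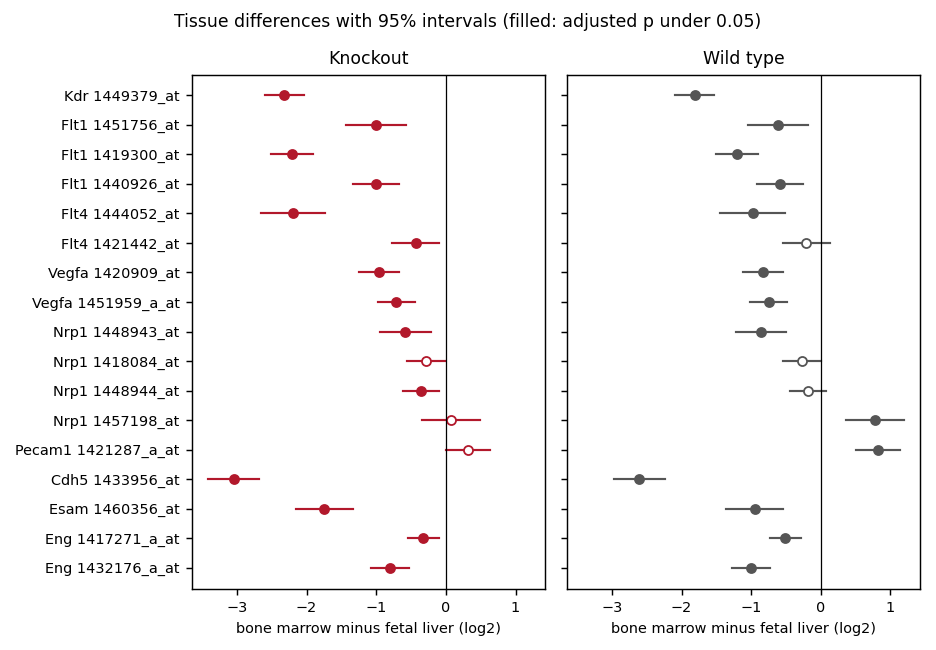
Bone marrow minus fetal liver difference (horizontal axis, log2) of the 17 tested probe sets in knockout and wild-type arrays, with 95% intervals from the limma fit as lines, filled points for an adjusted p under 0.05 and open points otherwise. In both panels 15 of the 17 points lie below 0, Cdh5 lies farthest to the left, and Pecam1 and 1 probe set of Nrp1 lie above 0.

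The second comparison asked what loss of Col18a1 did to these genes in bone marrow, where 0 of the 17 tested probe sets were called in either direction (limma), beside 0.184% of all probe sets tested. At an unadjusted p under 0.05, 4 of the 17 were found, beside 5.75% of all, and 5 of the 17 had genotypes that did not overlap, beside 41.7% of all. Of the 17, 12 had a negative and 5 a positive difference, knockout minus wild type, beside 53.1% positive over all probe sets. The median was -0.09, beside 0.01 over all probe sets. Esam differed most, by -0.92 ± 0.18 (SE, n = 2 pools each; adjusted p = 0.166, limma), with wild type 1.89-fold above knockout and a 95% interval of -1.33 to -0.51. It passed in 1 of 18 alternative settings, that of a mean-dependent and robust variance prior (adjusted p = 0.044, limma).

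The other probe sets at an unadjusted p under 0.05 in bone marrow were of a receptor or junction gene. Flt4 on 1444052_at differed by -0.62 ± 0.20 (adjusted p = 0.711, limma), Cdh5 by -0.61 ± 0.16 (adjusted p = 0.464, limma) and Flt1 on 1419300_at by -0.45 ± 0.13 (adjusted p = 0.572, limma). All 3 lay under 6 on every marrow array. Leaving out 1 array kept Esam between -1.12 and -0.73 and Cdh5 between -0.87 and -0.36. For the ligand Vegfa the genotypes overlapped on both probe sets, with a 95% interval of -0.24 to 0.33 on 1420909_at, and the interval of Kdr was -0.37 to 0.18. Those of Pecam1, -0.44 to 0.20, and of Eng on 1417271_a_at, -0.20 to 0.25, also took in 0.

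Markers of other cells moved in the same arrays. Of 12 megakaryocyte genes, 11 had a probe set of their own, and 8 fell in knockout bone marrow and 0 rose (limma, adjusted p under 0.05). Calls in this comparison numbered 51 over all probe sets and 1 to 46 with any 1 array left out, the 1 being without wild-type bone marrow replicate 1. The summed intensity of the 11 genes was 7961 and 8383 in knockout bone marrow, against 19130 and 15930 in wild-type bone marrow. The lowest group mean of these genes was 5.50, that of Gp6 in knockout bone marrow, not far above the filter level of 5. Wild-type replicate 1 was the higher of its pair for this sum and for Esam, Cdh5, Kdr and Flt4 on 1444052_at. It was the lower for Pecam1 and for Flt4 on 1421442_at. The stroma, pan-endothelial and sinusoidal sums were also higher in that replicate, so the order was not particular to megakaryocyte genes, while the hepatoblast and erythroid sums were lower. The 8 stroma genes had a summed intensity of 3205 and 3221 in knockout bone marrow, against 5542 and 4394 in wild type, with 0 called. The 10 pan-endothelial genes beside the members had 384.5 and 417.2, against 481.8 and 427.4, with 8 of the 9 tested having a negative difference and 0 called. The mean log2 of this list was 4.87 and 4.96 in knockout bone marrow, against 5.16 and 5.02 in wild type. These levels lie near the filter level of 5, with a lowest group mean of 3.56, so a difference in marrow could be missed. The 8 sinusoidal endothelial genes had 1632 and 1585 in knockout bone marrow, against 1495 and 1457 in wild-type bone marrow. Of the 7 tested, 5 had a negative difference and 0 were called. The endothelial lists thus lay on opposite sides in their sums only, with median differences of -0.15 (sinusoidal) and -0.21 (pan-endothelial). The sinusoidal mean log2 was 6.26 and 6.16 in knockout bone marrow, against 6.45 and 6.20 in wild-type bone marrow, with the genotypes overlapping. The part of these cells in the Esam, Cdh5 and Flt4 differences was not tested.

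**Figure D3:**
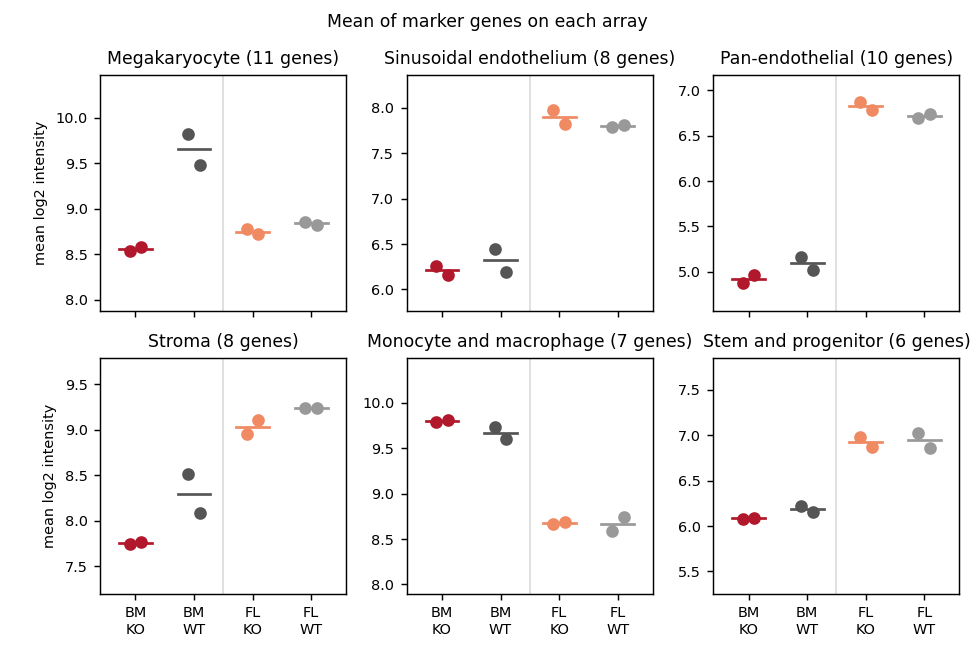
Mean log2 intensity (vertical axis) of 6 marker lists on each of the 8 arrays, with points for arrays and a line for the mean of each group of 2 (BM bone marrow, FL fetal liver, KO knockout, WT wild type). The megakaryocyte mean is 8.53 and 8.58 in knockout bone marrow, against 9.82 and 9.48 in wild-type bone marrow, and the pan-endothelial mean lies lower on every bone marrow array than on any fetal liver array.

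The third comparison asked the same in fetal liver, where again 0 of the 17 probe sets were called (limma), beside 0.177% of all. At an unadjusted p under 0.05, 6 of the 17 were found, beside 20.7% of all, and 12 had genotypes that did not overlap, beside 48.4% of all. Here 11 of the 17 had a positive difference, beside 50.5% of all, with a median of 0.17, beside 0.00 over all probe sets. All 6 probe sets of the receptors Kdr, Flt1 and Flt4 that were tested had positive values. Those of the same gene are not independent, and genotype and pool sex cannot be told apart in these arrays. Kdr differed by 0.41 ± 0.12 (adjusted p = 0.129, limma), Flt1 on 1419300_at by 0.56 ± 0.13 (adjusted p = 0.098, limma) and Flt4 on 1444052_at by 0.59 ± 0.20 (adjusted p = 0.165, limma).

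Single pools carried part of these values. Without knockout fetal liver replicate 2, Flt1 on 1419300_at differed by 0.68 and passed (adjusted p = 0.0489, limma), as did Flt4 on 1444052_at at 0.93 (adjusted p = 0.0386, limma). Flt4 differed by 0.26 without knockout replicate 1, the pool at 7.47, and the brightest Flt1 probe set by 0.04. Nrp1 on 1457198_at differed by 0.49 ± 0.18, and by 0.80 with a call (adjusted p = 0.0327, limma) without knockout replicate 1, or 0.18 without knockout replicate 2.

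Cdh5, Esam and Eng had negative values in fetal liver, and Pecam1 a positive one. Cdh5 differed by -0.18 ± 0.16, Esam by -0.12 ± 0.18, and the probe sets of Eng by -0.16 ± 0.10 and -0.16 ± 0.12, while Pecam1 differed by 0.38 ± 0.14 (adjusted p = 0.189, limma). The brightest Nrp1 probe set differed by -0.32 ± 0.16 and Vegfa by 0.17 ± 0.12 and -0.05 ± 0.12. The megakaryocyte sum was 8193 and 8259 in knockout fetal liver, against 8409 and 8454 in wild-type fetal liver, the sinusoidal endothelial sum was 2783 and 2668, against 2621 and 2723, and the pan-endothelial sum was 1649 and 1619, against 1682 and 1710. By sign, 6 of the 9 tested pan-endothelial genes were positive and 3 negative, with a median of 0.14. The mean log2 of the pan-endothelial list was 6.88 and 6.78 in knockouts, against 6.69 and 6.74 in wild type. Its sum and its mean log2 thus lay on opposite sides. Among the 7 tested sinusoidal genes, 4 were positive and 3 negative. Of the 11 megakaryocyte genes, the 7 tested sinusoidal genes and the 9 tested pan-endothelial genes, 0 were called (limma), beside a difference in Xist on the same arrays.

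**Figure D4:**
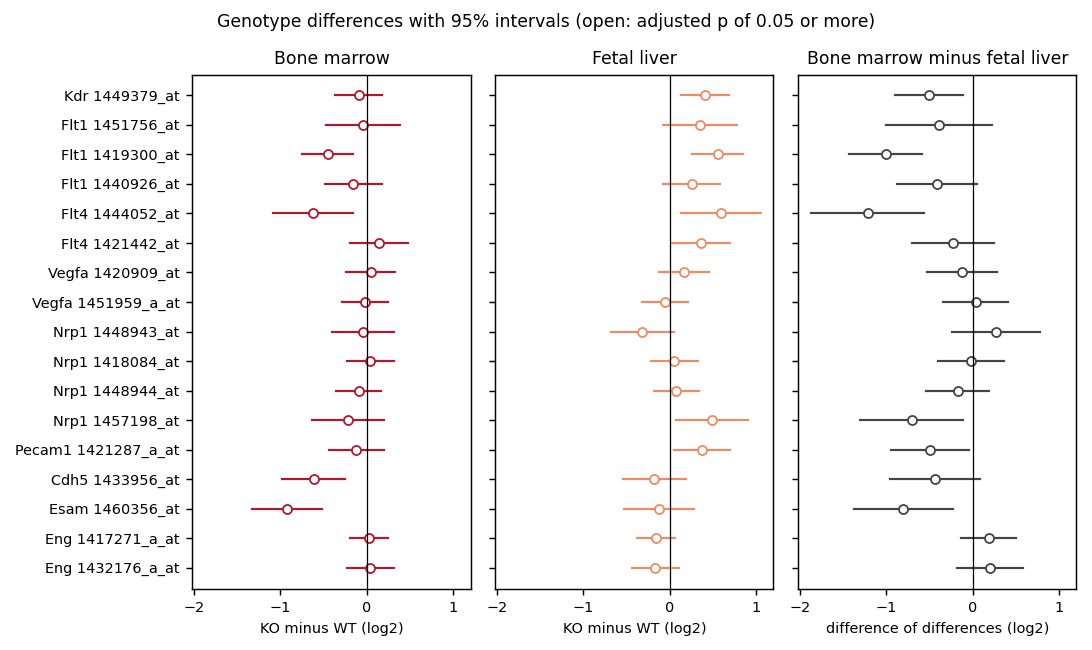
Knockout minus wild-type difference (horizontal axis, log2) of the 17 tested probe sets in bone marrow and in fetal liver, and the bone marrow difference minus the fetal liver difference, with 95% intervals from the limma fit as lines. All points are open, since 0 of 17 passed an adjusted p of 0.05 in any panel, and 13 of 17 lie below 0 in the last panel.

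A term for tissue by genotype set the bone marrow genotype difference against that of fetal liver, and 0 of the 17 probe sets were called (limma), beside 0.0434% of all. At an unadjusted p under 0.05, 6 of 17 were found, beside 14.5% of all. By sign, 13 had a negative and 4 a positive value, beside 50.8% positive over all probe sets. The median was -0.39, beside 0.01 over all probe sets. Flt4 on 1444052_at gave -1.22 ± 0.29 (adjusted p = 0.17, limma), Flt1 on 1419300_at gave -1.01 ± 0.18 (adjusted p = 0.128, limma) and Esam gave -0.80 ± 0.25 (adjusted p = 0.25, limma). Kdr, with -0.50 ± 0.17 (adjusted p = 0.268, limma), and Pecam1, with -0.50 ± 0.20 (adjusted p = 0.313, limma), followed. The bone marrow and fetal liver genotype comparisons share no array, and 8 of the 17 members were negative in bone marrow and positive in fetal liver, beside 24.3% of all probe sets tested. These 8 probe sets belong to Kdr, Flt1, Flt4, Nrp1 and Pecam1, with several each from Flt1 and Nrp1, so they are not independent. The fetal liver side of this comparison also holds the difference in Xist between the pools. The same interaction compares the tissue gap between genotypes, so the larger gaps of Kdr, Flt1, Flt4 and Esam in knockouts were likewise not called.

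Beyond the members, 112 other genes of the pathway were listed, 101 of them tested on the brightest probe set. In either genotype comparison 0 of the 101 were called (limma), beside 0.236% of the brightest tested probe sets of all 13134 genes in bone marrow and 0.114% in fetal liver, and the medians were -0.10 in bone marrow and -0.02 in fetal liver, beside 0.01 and -0.03 over those genes. Between tissues, 60 of the 101 were lower and 25 higher in bone marrow in knockouts, and 53 were lower and 21 higher in wild type. Over the 13134 genes, 35.4% were called lower and 26.4% higher in knockouts, and 38% lower and 26% higher in wild type. The median difference of the 101 was -0.59 in knockouts and -0.44 in wild type, beside -0.11 and -0.14 over the 13134. Each list count below is set against those shares, and differences from a group averaging under 5 are printed as fitted, with their size uncertain.

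The other ligand and receptor genes varied in direction. Of 4 ligand genes beside Vegfa, Vegfc, the ligand of Flt4, differed by -1.34 ± 0.21 in knockouts and -1.18 ± 0.21 in wild type, both called. Vegfb was called in knockouts and not in wild type, with -0.65 ± 0.14 in knockouts and -0.29 ± 0.14 in wild type. In the angiopoietin and Tie list, 4 of 6 were lower and 2 higher in both genotypes, with a median of -1.05 in knockouts and -0.82 in wild type. The receptor gene Tie1 differed by -2.14 ± 0.19 in knockouts, from a marrow mean of only 3.56, while Angpt1, the ligand of the Tek receptor, was higher in wild-type bone marrow by 1.32 ± 0.16 and Angptl1 by 1.496 ± 0.11.

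Of 19 tested junction and adhesion genes, 15 were lower and 2 higher in bone marrow in each genotype, with a median of -1.18 in knockouts and -0.88 in wild type. Ocln, the tight junction protein occludin, differed by -3.20 ± 0.16 in knockouts and -3.62 ± 0.16 in wild type, and Marveld2, tricellulin, by -2.70 ± 0.12 and -2.39 ± 0.12. Ocln averaged 3.99 in knockout and 4.19 in wild-type marrow, and Marveld2 4.39 and 4.70, all under the filter level. Both are also epithelial genes, and the hepatoblast sum differed between the same tissues as given above. Their part in these differences was not tested. In the endoglin receptor list of 14 tested genes, 10 were lower and 3 higher in knockouts, and 9 and 2 in wild type, with medians of -0.65 and -0.64. Smad6, an inhibitory SMAD that averaged 4.45 in knockout and 4.44 in wild-type marrow, differed by -2.84 ± 0.14 in knockouts and -3.03 ± 0.14 in wild type, and Tgfbr2, the type II TGF-beta receptor, by 1.56 ± 0.09 and 1.66 ± 0.09.

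Of 17 tested transcription factors of endothelial and blood cells, 11 were higher and 5 lower in bone marrow in knockouts, and 10 and 5 in wild type, with medians of 0.78 and 0.60. Klf2 differed by 3.32 ± 0.13 in knockouts and 3.23 ± 0.13 in wild type, and Klf4 by 3.54 ± 0.18 and 3.84 ± 0.18, both factors being also known in leukocytes. Of 14 hypoxia-related genes, tested because Vegfa is a target of hypoxia-inducible factors, 9 were lower and 2 higher in knockouts, and 8 and 0 in wild type, with medians of -0.81 and -0.40. The glucose transporter gene Slc2a1, which red cell precursors also express, differed by -5.11 ± 0.11 in knockouts and -5.25 ± 0.11 in wild type, and Bnip3 by -2.55 ± 0.10 and -2.48 ± 0.10. Of 12 tested Notch and guidance genes, 9 were lower and 1 higher in knockouts, and 6 and 1 in wild type, with medians of -0.63 and -0.41. The Notch ligand gene Jag1 differed by -2.16 ± 0.16 and Efnb2 by -1.57 ± 0.12 in knockouts, and Notch1 by 1.43 ± 0.10 and Sema3a by -1.70 ± 0.16 in wild type. Marrow means in those comparisons were 4.61 for Jag1, 4.81 for Efnb2 and 4.66 for Sema3a. Of 15 VEGF co-receptor and signalling genes, 6 were lower and 4 higher in knockouts, and 5 and 4 in wild type, close to the shares over all genes, with medians of -0.11 in both. The kinase gene Prkcb differed by 4.39 ± 0.09 in knockouts and 4.51 ± 0.09 in wild type, and Yes1, at a marrow mean of 3.27 in knockouts and 3.95 in wild type, by -4.15 ± 0.16 and -3.75 ± 0.16.

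Vessel markers outside the members followed the tissue split, with Tie1 counted both here and in the angiopoietin and Tie list. All 9 tested pan-endothelial genes were lower in bone marrow in both genotypes, and their summed intensity was 384.5 to 481.8 on the bone marrow arrays, against 1619 to 1710 on the fetal liver arrays. The mean log2 of that list was 4.87 to 5.16 on the bone marrow arrays, near the filter level of 5, so the size of these differences is uncertain. Of the 7 tested sinusoidal genes, 5 were lower and 1 higher in knockouts, and 6 and 1 in wild type, with a summed intensity of 1457 to 1632 in bone marrow, against 2621 to 2783 in fetal liver.

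The genes whose level over the 8 arrays was most like that of a member were found by Pearson's correlation among 6284 genes with an SD of at least 0.3. The arrays are split by tissue, which all these correlations share, so these are descriptions only. Nearest to Kdr were Abhd14a, Lrrc3 and Erlin2 (r = 0.998 each), and nearest to Cdh5 were Cttn, Ndrg1 and Cdh2 (r = 0.998 each). Nearest to Pecam1 were Zkscan8 (r = 0.98), Bcl2l11 (r = 0.978) and Ttyh3 (r = 0.974), and nearest to Vegfa were Gpatch1 (r = 0.994), Zfp697 (r = 0.993) and Cox17 (r = 0.992). Cttn stood at 8.84 in knockout and 9.47 in wild-type bone marrow, and at 11.27 in knockout and 11.36 in wild-type fetal liver.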

How the data were processed

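The values are linear-scale intensities that the authors deposited, summarised per probe set with RMA, a method of background correction, quantile normalization and probe summary, per the submitters' processing notes, with the version not given in the sources used here. RMA makes arrays alike in distribution and compresses differences of dim probe sets. Medians were 40.82 to 42.61 on the 8 arrays, and the number of arrays limits the precision.

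The log2 of each intensity was taken here. Probe sets reaching 5 (log2) on 2 or more of the arrays, without 64 control probe sets, were fitted in R 4.3.3 with limma 3.58.1, with 1 mean per group over all 8 arrays (4 residual and 4.10 prior degrees of freedom), 5 contrasts and Benjamini-Hochberg adjustment over the 27654 tested. Every adjusted p is limma's and two-sided. Probe sets were named from the platform annotation (34958 with 1 gene, 932 with several, 9211 unnamed here). Tested on simulated data of all 27654 probe sets, the fit recovered 82.1% of 2-fold and 12.2% of 1.5-fold changes in bone marrow, and 72.8% and 17.9% in fetal liver. The simulated noise was normal and independent between probe sets, with variances drawn from the fitted prior. It held no deviation shared by the probe sets of an array, so these shares do not give the recovery in the real arrays. Each probe set had 1 simulated variance for all 8 arrays, so the gap in recovery between the tissues came from the random draw. Recovery also depends on the number and size of the changes added, which were chosen and included 4-fold ones.

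The members, lists and rules were chosen with earlier results of these data known. Named beside the members were pathway genes called between genotypes, the 2 largest moderated t per list and tissue comparison, the 3 genes most correlated with each of Kdr, Cdh5, Pecam1 and Vegfa, Col18a1 and Xist. Marker lists for neutrophils, monocytes, plasmacytoid dendritic cells, stem and progenitor cells and erythroid cells had 0 genes called between genotypes in either tissue. Alternatives covered filter, probe set choice, offset, normalization, variance model, array weights, replicate block, arrays in the fit and each array left out.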

Additional observations from a re-analysis of the deposited data

How the results depend on the processing

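Of the member probe sets' values over all alternatives and comparisons, none of the called ones changed sign. Of these 1468 values, 1435 stayed on their side of the threshold with no change of sign larger than the standard error, 16 lost a call, 11 gained one and 6 uncalled ones changed sign by more than it. With a trended and robust prior 1 member passed in bone marrow between genotypes (Esam), and over single arrays left out 0 to 2 passed in fetal liver. With only the brightest probe set per gene, 8 of 9 members were called between tissues in knockouts and 9 of 9 in wild type, of 8373 and 8661 genes called, and with 1 array left out 11 to 14 and 13 to 14 of 17 were.

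Counts over all probe sets were less stable between genotypes. In bone marrow 51 were called, against 102 with an offset of 16, 117 with a trended and robust prior, 131 with array weights, 1 with the arrays of those groups only and 1 to 46 with 1 array left out, the 46 being without wild-type bone marrow replicate 2, the 1 without replicate 1, and each other array leaving 2 to 8. In fetal liver 49 were called (27 higher, 22 lower), against 25 with no filter, 161 with a filter at 6, 260 with the offset, 76 after centring arrays on their medians (31 higher, 45 lower), 667 with the trended prior, 12 with array weights, 8 with those arrays only and 11 to 1021 with 1 array left out, the 1021 being without knockout fetal liver replicate 2, with 382 without its replicate 1 and 11 to 13 without any other array. The interaction had 12, against 38 with the offset, 102 with the trended prior and 8 to 11 with 1 array left out. The cause of these shifts was not tested, beyond fewer arrays where some were left out.

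With the replicate number as a block, 28 were called in bone marrow and 16 in fetal liver, with 0 members in either. The numbers are labels only: same-numbered arrays deviated together at r = -0.09 to 0.01 across probe sets, so they pair nothing. Probe sets under 5 (log2) on all arrays, among them 1 each of Flt1 and Cdh5, were not tested, and differences from groups under that level have an uncertain size.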

Other observations

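Among the listed pathway genes, F11r (JAM-A, a junction protein also on platelets), Src and Prkca had the most negative knockout minus wild-type differences in bone marrow, and are named here after their values were seen. F11r stood at 6.58 in knockout and 7.52 in wild type (-0.94 ± 0.16, adjusted p = 0.108, limma), Src at 6.05 and 6.996 (-0.95 ± 0.16, adjusted p = 0.0996, limma) and Prkca at 8.13 and 8.91 (-0.78 ± 0.15, adjusted p = 0.186, limma). None passed, and the megakaryocyte sum was lower on the same arrays, whose part was not tested. Epas1, likewise chosen after its values were seen and a hypoxia-inducible factor gene of endothelium, was negative in bone marrow and positive in fetal liver, as were Flt1 on its 3 tested probe sets and Flt4 on 1444052_at but not on 1421442_at, with -0.43 ± 0.15 in bone marrow and 0.44 ± 0.15 in fetal liver and an interaction of -0.87 ± 0.21 (adjusted p = 0.18, limma), and also did not pass.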
